A study of Mus musculus with 6 samples.

Results

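The prostaglandin and leukotriene synthesis enzymes described here are 10 genes chosen by name, Pla2g4a, Ptgs1, Ptgs2, Ptges, Ptges3, Hpgds, Tbxas1, Alox5, Alox5ap and Ltc4s, out of 54532 genes listed for each library. The choice was made with earlier results of these data known. Each name matched 1 gene of the GENCODE M21 annotation of GRCm38, and all 10 were in every library. RNA was sequenced from immortalized bone marrow-derived macrophages (iBMDMs), a mouse cell line made in earlier work of the same laboratory from wild-type bone marrow, with retroviruses carrying v-raf and v-myc. The control iBMDMs carried a control shRNA (shControl) and the PGAM5 KD iBMDMs an shRNA against Pgam5 (shPGAM5), delivered by lentivirus, and each group had 3 libraries. All 6 libraries came from cells treated with LPS, the bacterial ligand of Toll-like receptor 4, at 100 ng/ml for 4 hours. The values thus compare both groups after LPS and do not measure induction over untreated cells. Neither the labels nor the paper say how many shRNA sequences or infected lines each group held. An effect of PGAM5 therefore cannot be told apart from another difference between the groups. The labels do not say whether replicates were separate cultures or infections. The p-values then measure only the spread between these libraries, which may be technical.

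Eicosanoids are short-lived lipid signals made from arachidonic acid. Cytosolic phospholipase A2 frees arachidonic acid from membranes, the cyclooxygenases turn it into prostaglandin H, and terminal synthases turn that into prostaglandin E, prostaglandin D or thromboxane. In a second branch, arachidonate lipoxygenase and its activating protein make leukotriene A, which leukotriene C synthase joins to glutathione. Macrophages are a known source of both kinds of lipid, and Ptgs2 is a classical LPS-induced gene. These statements are background, and no lipid was measured in these libraries.

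The values are FPKM, fragment counts scaled by exon length and by library depth, so levels can be compared between genes per unit of length. That length is of all annotated exons of a gene together and can exceed that of the mRNA present, so such comparisons are approximate. Depth recovered from the FPKM values was between 18163464 and 24388917 fragments per library. Pgam5 itself was 17.1, 13.0 and 13.4 FPKM in control and 4.33, 5.75 and 4.53 FPKM in PGAM5 KD libraries, a log2 fold change of -1.40 ± 0.13 (SE, limma adjusted p = 0.000358). Of 8 macrophage markers, 7 had a mean FPKM of at least 1, and Mertk was listed at 0 in every library. In the limma test over all genes these 7 all passed, 4 as higher in PGAM5 KD libraries (Adgre1, Itgam, Fcgr1 and Cd14) and 3 as lower (Csf1r, Cd68 and Lyz2), where 16.8% of all genes tested were higher and 14.9% lower. Their summed level was between 2802 and 2894 FPKM in control and between 2526 and 2544 FPKM in PGAM5 KD libraries. Their part in the results was not tested. Mast cells, basophils, platelets, neutrophils, fibroblasts and lymphocytes were close to absent, since none of the 35 markers of these cells had a mean FPKM of 1. The highest summed level of any of those lists was 1.04 FPKM, for platelets and megakaryocytes in a control library. In bulk RNA a difference in the number of cells that express a gene and a difference in RNA per cell cannot be told apart.

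Of the 10 enzymes, 5 were higher and 1 was lower in PGAM5 KD iBMDMs. Both cyclooxygenases, the cytosolic phospholipase A2 gene Pla2g4a, the lipoxygenase gene Alox5 and its partner Alox5ap rose, while the prostaglandin D synthase gene Hpgds fell. The prostaglandin E synthase genes Ptges and Ptges3 and the leukotriene C synthase gene Ltc4s did not pass the test, and Tbxas1 was too low to be tested. Log2(FPKM + 1) was tested with limma across 10540 genes whose mean FPKM was 1 or more, with Benjamini-Hochberg adjustment over all of them and an adjusted p-value under 0.05 as the threshold. Of the 9 enzymes tested, 5 were higher, against 16.8% of all genes tested, and 1 was lower, against 14.9%. In either direction, 66.7% of the tested enzymes and 31.7% of all genes tested passed. Their median log2 fold change was 0.39, and that of all genes tested was 0.013. With an absolute log2 fold change above 1 as well, the cut-off of the study, 2 of the 9 enzymes passed, both higher, against 0.787% of all genes tested in that direction and 1.32% in either direction. With a pseudocount of 0.1 or with voom, Alox5 passed as well, which made 3 of 9 enzymes against 2.48% or 2.69% of all genes tested in either direction, and with TPM it was 2 of 9 against 2.21%. The libraries of both groups did not overlap for 7 of the 9 enzymes, against 47.1% of all genes tested. The enzymes were chosen with earlier results of these data known, so their shares may exceed those of all genes through the choice itself.

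**Figure D1:**
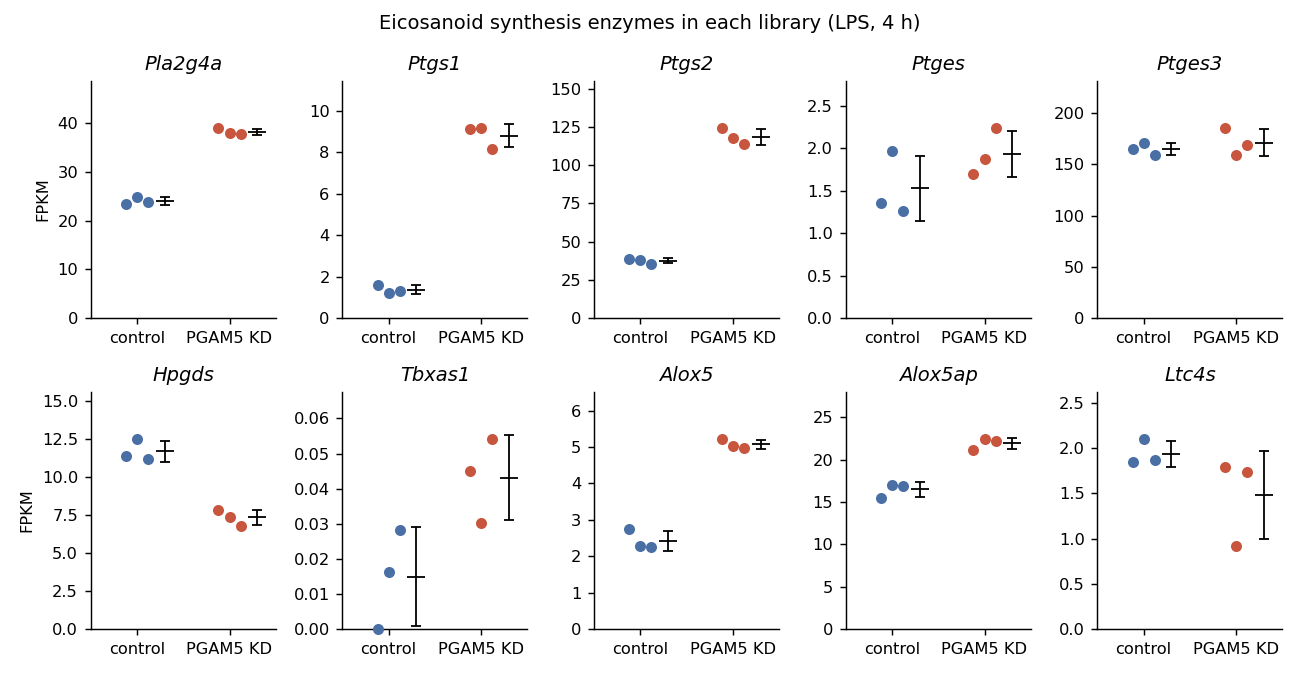
FPKM (vertical axes, from 0, 1 scale per gene) of the 10 enzymes in the 3 control and the 3 PGAM5 KD libraries, 1 point per library, with the mean and SD of each group beside the points. Ptgs1, Ptgs2, Pla2g4a, Alox5 and Alox5ap lie higher in every PGAM5 KD library than in any control library, Hpgds and Ltc4s lie lower, and Tbxas1 stays under 0.06 FPKM.

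**Figure D2:**
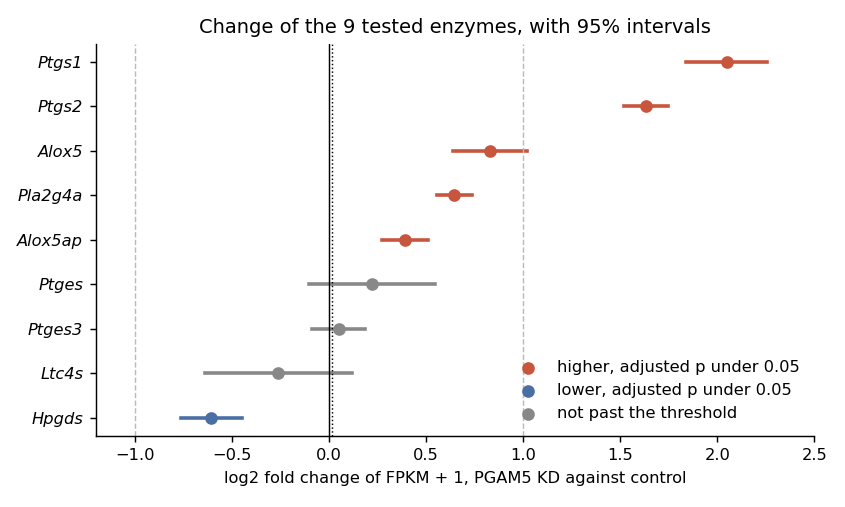
Log2 fold change of FPKM + 1 (horizontal axis, PGAM5 KD against control) of the 9 tested enzymes with 95% intervals from limma. The dotted line is the median of all genes tested (0.013), dashed lines mark a log2 fold change of 1 in either direction, and the intervals of Ptges, Ptges3 and Ltc4s include 0.

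Ptgs1 and Ptgs2 encode the cyclooxygenases COX-1 and COX-2, which catalyse the same committed step of prostanoid synthesis. COX-1 is generally made at a steady level and COX-2 after an inflammatory stimulus. Ptgs2 (ENSMUSG00000032487) lies on the plus strand at chr1:150100031-150108227, and Ptgs1 (ENSMUSG00000047250) on the plus strand at chr2:36230426-36252272. The 250 bases before each start site are shown because these 2 genes had the largest changes among the enzymes, and because the annotated start site of RefSeq (GRCm38.p6) is the same as that of GENCODE for both. The windows are chr1:150099781-150100030 and chr2:36230176-36230425, both on the plus strand and written 5′ to 3′, and capitals mark the motifs found.
Ptgs2: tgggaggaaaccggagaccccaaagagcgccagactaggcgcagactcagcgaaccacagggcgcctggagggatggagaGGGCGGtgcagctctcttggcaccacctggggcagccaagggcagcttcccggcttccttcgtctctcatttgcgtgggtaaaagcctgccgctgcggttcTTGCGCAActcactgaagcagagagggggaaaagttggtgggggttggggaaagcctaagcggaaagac
Ptgs1: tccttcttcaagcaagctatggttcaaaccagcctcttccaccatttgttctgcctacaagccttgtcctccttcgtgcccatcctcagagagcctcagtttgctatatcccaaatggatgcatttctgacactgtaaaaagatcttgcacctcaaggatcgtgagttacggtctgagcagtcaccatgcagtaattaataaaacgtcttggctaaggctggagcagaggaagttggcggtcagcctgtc
Both strands were searched for 7 motifs. These were a TATA box (TATAAA, in 12.4% of all 32851 RefSeq windows of this length), a CRE half-site (CGTCA, 17.8%), an E-box (CACGTG, 6.0%), a GC box (GGGCGG, 32.7%), a C/EBP-like motif (TTGCNNAA, 9.6%), an NF-kB-like motif (GGG and TTTCC with any 2 bases between them, 1.4%) and an interferon-element-like motif (GAAA and GAAA with any 2 bases between them, 3.0%). The Ptgs2 window held 1 GC box, from 170 to 165 bases before the start, and 1 C/EBP-like motif, from 69 to 62 bases before the start. Its letters read the same on both strands. The Ptgs1 window held none of the 7, and its GC content was 48.0% against 61.6% for Ptgs2. A match is a description of the letters and not of a bound site. Bases further upstream or after the annotated start were not searched, so a motif missing from a window may still lie near the gene.

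Ptgs2 was 38.7, 38.3 and 35.5 FPKM in control and 123.9, 117.4 and 114.1 FPKM in PGAM5 KD libraries. Every PGAM5 KD library was about 3 times as high as the control libraries, which lay close together. The means were 37.5 ± 1.73 FPKM in control and 118.5 ± 5.02 FPKM in PGAM5 KD libraries (SD, n = 3 each), a ratio of 3.16, and the log2 fold change was 1.63 ± 0.05 (SE, limma adjusted p = 7.42e-06). Ptgs2 had between 3175 and 12740 fragments per library.
Ptgs1 was far lower in control cells, at 1.60, 1.21 and 1.31 FPKM, and reached 9.13, 9.14 and 8.14 FPKM in PGAM5 KD libraries. In control cells it was among the lowest of the enzymes, in PGAM5 KD cells it was above Hpgds, and the groups did not overlap. The means were 1.37 ± 0.203 FPKM and 8.80 ± 0.575 FPKM (SD, n = 3 each), a ratio of 6.41. This was a log2 fold change of 2.05 ± 0.09 (SE, limma adjusted p = 2.05e-05), a scale on which adding 1 to FPKM shrinks the change of so low a gene. Limma's voom on the recovered fragments, 95 to 113 per control and 645 to 779 per PGAM5 KD library, gave 2.68. No other gene matched Ptgs1 or Ptgs2 at 85% identity or more over at least 200 bases. Gm43621, which overlaps 148 exonic bases of Ptgs1 on the other strand, was listed at 0 in every library. The labels do not say whether the libraries kept strand, so how fragments of these 148 bases were counted is not known.

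Because Ptgs1 rose by a larger factor than Ptgs2, the balance of both cyclooxygenase mRNAs differed between the groups. Within a library, the ratio of Ptgs2 to Ptgs1 FPKM was 24.1, 31.6 and 27.2 in control and 13.6, 12.8 and 14.0 in PGAM5 KD cells. Ptgs2 thus stayed the main cyclooxygenase mRNA in every library, and the ratio was lower in each PGAM5 KD library than in any control library. The log2 ratio fell by 1.03, from 4.78 ± 0.19 to 3.75 ± 0.064 (SD, n = 3 each, exact two-sided permutation p = 0.1, the smallest that 3 libraries against 3 allow).

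**Figure D3:**
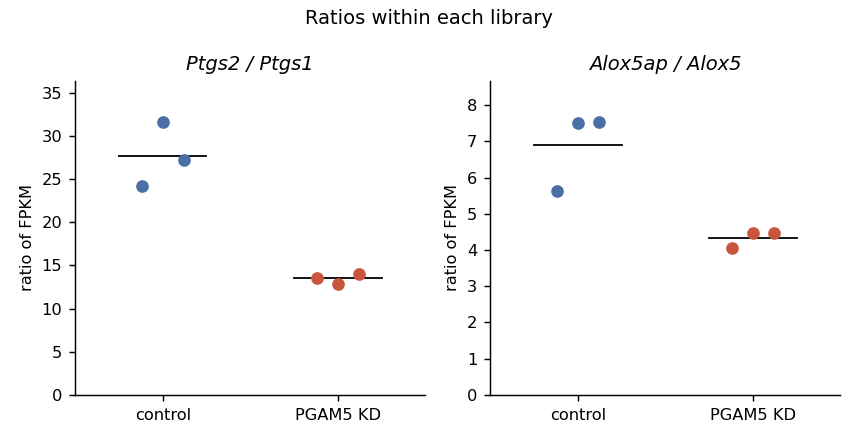
Ratio of FPKM within each library (vertical axes, from 0) for Ptgs2 over Ptgs1 and for Alox5ap over Alox5, 1 point per library, with a line at the mean of the 3 libraries. Both ratios are lower in the PGAM5 KD libraries, at 12.8 to 14.0 against 24.1 to 31.6 and at 4.06 to 4.46 against 5.63 to 7.53.

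Pla2g4a encodes cytosolic phospholipase A2 alpha, which releases the arachidonic acid that both branches use. The gene (ENSMUSG00000056220) lies on the minus strand at chr1:149829618-149961290, on the same chromosome as Ptgs2. It was 23.5, 25.0 and 23.9 FPKM in control and 38.9, 38.1 and 37.8 FPKM in PGAM5 KD libraries. The spread within each group was small beside the gap between the groups, at 24.1 ± 0.774 and 38.3 ± 0.61 FPKM (SD, n = 3 each). The ratio of the means was 1.59 and the log2 fold change 0.65 ± 0.04 (SE, limma adjusted p = 6.53e-05).

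The terminal prostanoid synthases did not move as a group. Hpgds (ENSMUSG00000029919, minus strand, chr6:65117293-65144908) encodes the glutathione-dependent prostaglandin D synthase of blood cells and was the only enzyme that passed the test in the lower direction. It was 11.4, 12.5 and 11.2 FPKM in control and 7.80, 7.38 and 6.80 FPKM in PGAM5 KD libraries. All PGAM5 KD libraries lay below all control libraries. Its log2 fold change was -0.61 ± 0.07 (SE, limma adjusted p = 0.000829), and the control mean was 1.59 times the PGAM5 KD mean. Parts of its exons, 201 to 213 bases long, matched 7 other genes at 85.1% to 86.4% identity.
Ptges (ENSMUSG00000050737, minus strand, chr2:30889471-30929863) encodes microsomal prostaglandin E synthase-1, the inducible partner of COX-2. It was 1.36, 1.97 and 1.26 FPKM in control and 1.70, 1.88 and 2.23 FPKM in PGAM5 KD libraries. Control replicate 2 was higher than 2 of the PGAM5 KD libraries, so the groups overlapped. Its log2 fold change of 0.22 did not pass the test (95% interval from -0.10 to 0.55, adjusted p = 0.263 from limma), with 97 to 214 fragments per library. It was 0.34 without control replicate 2 (limma adjusted p = 0.0988), 0.15 without control replicate 3, 0.34 with a pseudocount of 0.1 and 0.36 with voom, and passed under none of these.
Ptges3 (ENSMUSG00000071072, plus strand, chr10:128058954-128077272) encodes p23, a co-chaperone of Hsp90 that also has cytosolic prostaglandin E synthase activity. It was the highest of the 10 enzymes, at 165, 171 and 159 FPKM in control and 185, 160 and 169 FPKM in PGAM5 KD libraries. Libraries of both groups overlapped, and a log2 fold change of 0.050 had a 95% interval from -0.087 to 0.19 (adjusted p = 0.551 from limma). Its sign turned to -0.029 when the libraries were scaled to TPM and to -0.036 under quantile normalization. The processed pseudogene Ptges3-ps is identical to Ptges3 over 480 bases, and between 76.6% and 81.4% of the fragments on Ptges3, Ptges3-ps and a second pseudogene were on Ptges3. Ptges3-ps was 178, 180 and 175 FPKM in control and 217, 225 and 189 FPKM in PGAM5 KD libraries, with no overlap. It passed the test as higher, with a log2 fold change of 0.24 ± 0.063 (SE, limma adjusted p = 0.0263). That call was lost under 9 of 15 other settings, among them leaving out any library but PGAM5 KD replicate 3, with limma adjusted p from 0.0623 to 0.0784. The fragments of both genes cannot be told apart where their sequence is identical. Summed over these genes, an alternative added after the data were seen, the log2 difference was 0.090 (exact two-sided permutation p = 0.3).
Tbxas1 (ENSMUSG00000029925, plus strand, chr6:38875404-39084585) encodes thromboxane A synthase. It had 0, 3 and 5 fragments in the control libraries and 9, 5 and 12 in the PGAM5 KD libraries. Thromboxane synthase mRNA was thus close to absent from both groups. Pooled over the libraries of a group, 8 fragments gave 0.015 FPKM (exact Poisson 95% interval from 0.0066 to 0.030) in control and 26 fragments gave 0.044 FPKM (from 0.029 to 0.065) in PGAM5 KD cells. These intervals cover counting error only. The groups did not overlap (exact two-sided permutation p = 0.1), and the gene was below the limit for the fit over all genes.

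The leukotriene branch opens with Alox5, the gene of arachidonate 5-lipoxygenase, and Alox5ap, the gene of the membrane protein FLAP that presents arachidonic acid to it. Alox5 (ENSMUSG00000025701, minus strand, chr6:116410077-116461178) was 2.75, 2.27 and 2.25 FPKM in control and 5.22, 5.03 and 4.97 FPKM in PGAM5 KD libraries. Its mean went from 2.42 ± 0.284 to 5.07 ± 0.129 FPKM (SD, n = 3 each), a ratio of 2.096, with no overlap. On the log2 scale it rose by 0.83 ± 0.08 (SE, limma adjusted p = 0.00047). With a pseudocount of 0.1 in place of 1, or with voom, it was 1.04 or 1.08 and so past the cut-off of the study on fold change.
Alox5ap (ENSMUSG00000060063, plus strand, chr5:149264767-149288153) was 15.5, 17.0 and 16.9 FPKM in control and 21.2, 22.4 and 22.2 FPKM in PGAM5 KD libraries. Each PGAM5 KD library was above each control library, by a smaller factor than for Alox5. On the log2 scale it rose by 0.39 ± 0.05 (SE, limma adjusted p = 0.00163). The antisense gene Gm19719 overlaps 189 of its 1420 exonic bases, and no library had more than 7 fragments on Gm19719. The labels do not say whether the libraries kept strand, so how fragments of these 189 bases were counted is not known. The ratio of Alox5ap to Alox5 FPKM was 5.63, 7.51 and 7.53 in control and 4.06, 4.46 and 4.46 in PGAM5 KD libraries. Its log2 value fell by 0.66 (exact two-sided permutation p = 0.1).
Ltc4s (ENSMUSG00000020377, minus strand, chr11:50236461-50238616) encodes leukotriene C synthase, which makes the first of the cysteinyl leukotrienes. It was 1.85, 2.10 and 1.87 FPKM in control and 1.79, 0.923 and 1.74 FPKM in PGAM5 KD libraries. The groups did not overlap, but the highest PGAM5 KD library was close to the lowest control library. PGAM5 KD replicate 2 was apart from the other libraries, with 17 fragments where the others had 34 to 43. The log2 fold change of -0.26 did not pass the test (95% interval from -0.64 to 0.12, adjusted p = 0.259 from limma), and it was -0.086 without that library and from -0.43 to -0.40 with TPM, a pseudocount of 0.1 or voom. The antisense gene Gm26542 overlaps 268 of the 1014 exonic bases of Ltc4s, and the labels do not say whether the libraries kept strand, so the level of Ltc4s is uncertain.

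Ordered by level within control cells, Ptges3 came first, followed by Ptgs2, Pla2g4a, Alox5ap, Hpgds, Alox5, Ltc4s, Ptges, Ptgs1 and Tbxas1. Neighbours in that order did not overlap, except Ltc4s with Ptges and Ptges with Ptgs1. In PGAM5 KD cells the first 4 places were the same, and Ptgs1 was in place 5 in place of 9, above Hpgds and Alox5. There only Ptges and Ltc4s overlapped. Both orders rest on the annotated exon lengths.

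The wider eicosanoid pathway was read from a list of 68 names in 9 roles, also chosen with earlier results of these data known. The names matched 69 genes because 2 genes carry the name Dpep2. Only 26 of them reached a mean FPKM of 1, and 14 were at 0 in every library. Of the 26 tested, 11 were higher and 3 lower in PGAM5 KD cells, and 12 did not pass. Their median log2 fold change was 0.12. The share that passed was 53.8%, against 31.7% of all genes tested. With TPM it was 30.8%, against 32.0% of all genes tested, so the difference in share was not seen there. Without PGAM5 KD replicate 2 or PGAM5 KD replicate 3 it was 30.8%, against 23.2% or 22.2%. The count of 11 was not stable. It fell to 6 with no filter on low values, to 5 with TPM, to 6 without control replicate 1 or control replicate 2, and to 5 without PGAM5 KD replicate 2 or PGAM5 KD replicate 3. The calls of Pla2g5, Daglb, Mgst3, Ptgr2, Abcc1 and Abcc4 held under each other setting in which they were tested, and the other 8 calls were lost under at least 1.

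Among other phospholipases A2, Pla2g5, a secreted enzyme of macrophages, was 20.7, 18.1 and 18.3 FPKM in control and 39.3, 36.3 and 37.7 FPKM in PGAM5 KD libraries. The groups did not overlap, with a log2 fold change of 0.96 ± 0.06 (SE, limma adjusted p = 8.42e-05). Pla2g15, a lysosomal enzyme, and Pla2g12a, another secreted one, had log2 fold changes of 0.37 and 0.27. The call of Pla2g15 was lost under 10 of 14 other settings. Among them were leaving out control replicate 1, 2 or 3 or PGAM5 KD replicate 2 or 3, with limma adjusted p from 0.0742 to 0.141. That of Pla2g12a was lost under 6 of 15, among them leaving out control replicate 1 or 2 or PGAM5 KD replicate 2 or 3, with adjusted p from 0.0615 to 0.102.
Of the genes that handle arachidonic acid, Daglb, a diacylglycerol lipase, fell by 0.35 on the log2 scale, from 3.98 ± 0.16 to 2.91 ± 0.18 FPKM (SD, n = 3 each). Lpcat3 and Acsl4, which place arachidonic acid in phospholipids and join it to coenzyme A, had log2 fold changes of 0.26 and 0.20. The call of Acsl4 was lost with TPM. That of Lpcat3 was lost under 7 of 15 other settings, among them leaving out any library but control replicate 3, with limma adjusted p from 0.0552 to 0.0716.
Among other prostanoid synthases, Cbr1, a carbonyl reductase, had a log2 fold change of 0.28, and Akr1b3, an aldo-keto reductase with prostaglandin F synthase activity, was high at 90.0 ± 1.87 FPKM in control and 98.2 ± 1.88 FPKM in PGAM5 KD libraries (SD, n = 3 each). Without PGAM5 KD replicate 2 the limma adjusted p of Cbr1 was 0.0534. Akr1b3 had a small log2 fold change of 0.12, which was 0.047 with TPM (limma adjusted p = 0.307) and 0.066 with quantile normalization (limma adjusted p = 0.165). Its call was lost under 7 of 15 other settings, among them leaving out control replicate 1 or 2 or PGAM5 KD replicate 2 or 3, with limma adjusted p from 0.0708 to 0.0753. The prostaglandin D synthase gene Ptgds had a mean of 0.010 FPKM over all libraries and the prostacyclin synthase gene Ptgis 0.14 FPKM.

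In the leukotriene branch, Mgst3, a microsomal glutathione transferase, rose from 12.8, 11.8 and 17.1 FPKM in control to 20.3, 21.6 and 21.0 FPKM in PGAM5 KD libraries. Its log2 fold change was 0.57 ± 0.12 (SE, limma adjusted p = 0.0123), and control replicate 3 was higher than the other control libraries. Mgst2, the microsomal enzyme that can replace leukotriene C synthase, had a log2 fold change of 0.29. Its call was lost under 9 of 15 other settings, among them leaving out any library but control replicate 3, with limma adjusted p from 0.0666 to 0.121. Lta4h, which makes leukotriene B, was 9.68 ± 0.545 and 9.89 ± 0.311 FPKM (SD, n = 3 each), with a log2 fold change of 0.028 (95% interval from -0.10 to 0.16).
The 6 other lipoxygenase genes, Alox15 and Alox12 among them, were all below a mean of 1 FPKM. Of the genes that inactivate eicosanoids or open epoxides, Ptgr2, a prostaglandin reductase, rose by 0.39 and Ephx1, microsomal epoxide hydrolase, by 0.68 on the log2 scale. The call of Ephx1 was lost under 3 of 14 other settings, with limma adjusted p of 0.0562 without control replicate 3 and 0.0617 without PGAM5 KD replicate 3. The main prostaglandin dehydrogenase gene, Hpgd, had a mean of 0.036 FPKM.
Both tested transporter genes fell. Abcc1, which exports leukotriene C, was 22.3, 21.1 and 22.1 FPKM in control and 17.1, 15.9 and 17.0 FPKM in PGAM5 KD libraries, a log2 fold change of -0.37 ± 0.05 (SE, limma adjusted p = 0.00133). Abcc4, which exports prostaglandin E, went from 10.1 ± 0.249 to 8.05 ± 0.243 FPKM (SD, n = 3 each) and had a log2 fold change of -0.30 ± 0.05 (SE, limma adjusted p = 0.00398).
Of 9 prostanoid and 5 leukotriene receptor genes, only Ptgir, the prostacyclin receptor, and Ptger4, a prostaglandin E receptor, reached a mean FPKM of 1. Ptgir was 6.19 ± 0.532 and 6.83 ± 0.789 FPKM and Ptger4 was 1.20 ± 0.2 and 1.61 ± 0.224 FPKM in control and PGAM5 KD libraries (SD, n = 3 each). Neither passed the test.

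**Figure D4:**
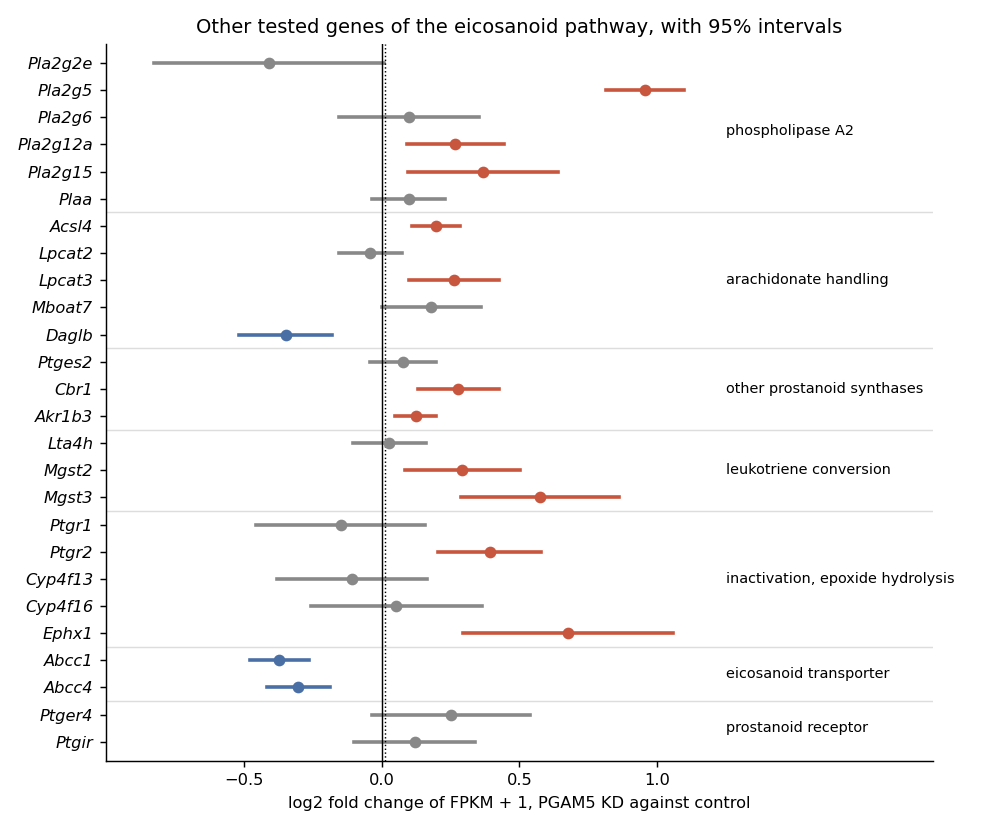
Log2 fold change of FPKM + 1 (horizontal axis, PGAM5 KD against control) with 95% intervals from limma for the 26 tested genes of the wider list, grouped by role. Red genes were higher, blue genes lower and grey genes not past an adjusted p-value of 0.05, and the dotted line is the median of all genes tested.

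Of the 10 enzymes, the 6 that passed the test kept their call and direction under each of the 14 or 15 other settings in which they were tested, left-out libraries included. The log2 fold change of Ptgs2 stayed between 1.57 and 1.66 and that of Pla2g4a between 0.58 and 0.67. Ptgs1 ranged from 2.00 to 2.68, Hpgds from -0.73 to -0.56, Alox5 from 0.79 to 1.08 and Alox5ap from 0.33 to 0.42.

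**Figure D5:**
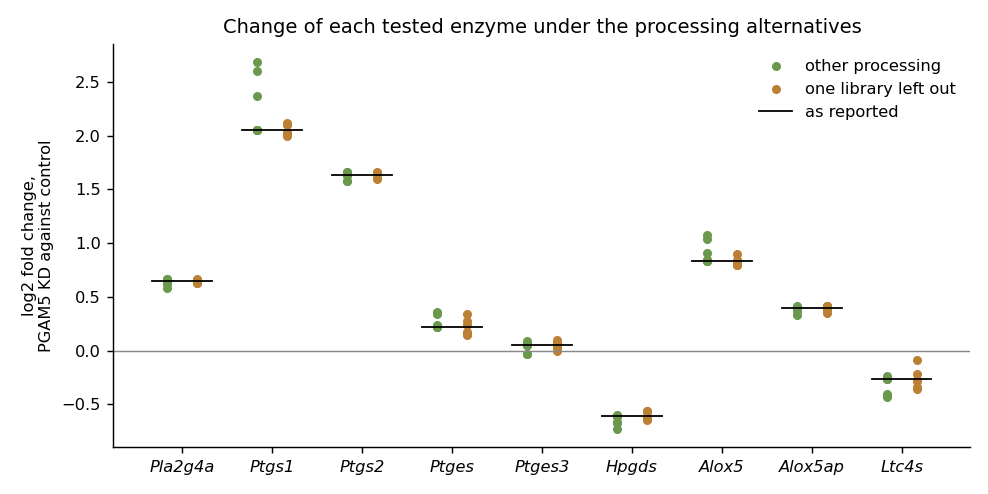
Log2 fold change (vertical axis, PGAM5 KD against control) of the 9 tested enzymes as reported (line), under other processing (green, for Ptges3 with the summed fragments) and with 1 library left out (orange). Ptgs1 moves most, up to 2.68, and Ptges3 lies on both sides of 0.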

How the data were processed

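RNA was isolated with the RNeasy kit, poly(A) RNA was selected, and libraries were made and sequenced by Novogene. The authors deposited FPKM, 1 table per library for 54532 Ensembl genes, not scaled further between libraries. The submitters' processing notes name HISAT2 2.0.5, featureCounts 1.5.0-p3 and the build mm10, with no annotation. Symbols, coordinates and exon lengths came from GENCODE M21 (GRCm38), which held 54495 of the identifiers. FPKM times exon length fell on whole fragments within 0.01 for 96.8% to 97.1% of values under 1000 fragments, which gave the depth. The study used iDEP. Here log2(FPKM + 1) of genes whose mean FPKM was 1 or more was fitted with limma 3.58.1 in R 4.3.3 (mean-variance trend, two-sided), and the fit was tested on simulated data. Replicates differed by more than sampling noise (chi-square over degrees of freedom 4.95 to 8.49). Similar genes were found with blastn 2.17.0 (at least 85% identity over 200 bases).

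The members and lists were chosen with earlier results of these data known. Named genes are the members, Pgam5, up to 3 called genes with the largest change in each role of the wider list, genes of that list whose mean FPKM was 50 or more, markers, and genes that overlap or resemble a member. Others are named for their role whatever their values. Alternatives were a pseudocount of 0.1, no filter, a mean FPKM of at least 5, TPM, quantile normalization, median centring, no trend, voom, a replicate block and leaving out each library.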

Additional observations from a re-analysis of the deposited data

How the results depend on the processing

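At an adjusted p-value under 0.05, no enzyme call was lost or gained under a setting in which that enzyme was tested. With the cut-off on fold change as well, Alox5 was gained with a pseudocount of 0.1 and with voom. At a mean FPKM of at least 5, Alox5, Ptges and Ltc4s were not tested, which left 4 enzymes called higher in place of 5. Ptges3, which was not called, changed sign with TPM (-0.029), quantile normalization (-0.036) and without PGAM5 KD replicate 1 (from -0.0078 to 0.099 with 1 library left out). The count of wider-list genes called higher, 11 as reported, was 6 with no filter and 5 with TPM, and from 5 to 9 with 1 library left out. The 139 genes past both cut-offs became 261 with a pseudocount of 0.1, 76 at a mean FPKM of at least 5, 233 with TPM and 283 with voom. Fewer genes enter the fit at a mean FPKM of at least 5; otherwise the cause was not tested. The same-numbered libraries did not deviate together (r of -0.020, 0.016 and -0.052). No pairing by number was thus seen, but these values do not show whether libraries were prepared in pairs. With the replicate block the calls of 5 higher enzymes and 1 lower enzyme held, 2652 genes passed the adjusted p-value in place of 3346, and Pla2g15 and Mgst2 lost their calls. The depth of 17 to 43 fragments limits Ltc4s, and 0 to 12 fragments limit Tbxas1.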

Other observations

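Pla2g4a and Ptgs2, the genes of the enzyme that frees arachidonic acid and of the inducible cyclooxygenase, are neighbours on mouse chromosome 1, 138.7 kb apart and transcribed away from each other. Both were higher in PGAM5 KD cells. The 3 genes annotated between them were near 0, with Gm19136 and Gm44329 listed at 0 in both groups and Ptgs2os, which starts 68 bases upstream of Ptgs2 on the other strand, at 0.035 FPKM in control and 0.058 FPKM in PGAM5 KD cells. On the far side of Ptgs2, the lincRNA gene Ptgs2os2 (minus strand, chr1:150159043-150164948), chosen after its values were seen, was 6.59, 6.05 and 3.85 FPKM in control and 8.89, 9.91 and 9.87 FPKM in PGAM5 KD libraries. Its libraries did not overlap between the groups, and it rose by 0.73 ± 0.16 on the log2 scale (SE, limma adjusted p = 0.0152). The call was lost when low genes were not filtered out (adjusted p = 0.0507) and without PGAM5 KD replicate 3 (adjusted p = 0.0522).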
